A study of Mus musculus with 26 samples.

Results

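Collagens, laminins, and the integrins that bind them were followed across 3 pluripotent cell states. The members are the genes of the RNA-seq table whose symbols name a collagen chain, a laminin chain, or an integrin subunit, with Sparc, Nid2, and Hspg2 added, and 67 of the 15646 genes with a value belong to them. They are 31 collagen genes, 9 laminin genes, 24 integrin genes, and the 3 added genes. The class lists name 20 further symbols, Nid1 and Col4a1 among them, that were not analysed here.

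The extracellular matrix of the early embryo is built from different kinds of polymer. Basement membranes are thin sheets made of laminin trimers, a collagen IV network, nidogens that link the sheets, and the heparan sulfate proteoglycan perlecan (Hspg2), and the epiblast rests on such a sheet. Fibrillar collagens, in contrast, form the thick fibers of mesenchyme and connective tissue. Integrins are receptors of an alpha and a beta subunit that couple these polymers to the actin cytoskeleton, and the alpha subunit largely sets the ligand.

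Mouse wild-type (WT) embryonic stem cells (ESCs), Nanog-/- ESCs, and epiblast-derived stem cells (EpiSCs) were compared. ESCs resemble the naive epiblast before implantation and EpiSCs the primed epiblast after it, and NANOG is a transcription factor of the naive network. The WT ESCs were of the line E14Tg2a (129P2/OlaHsd). The Nanog-/- ESCs were the derivative line RCNβH-B(t), which was kept under hygromycin selection during expansion. The EpiSCs were derived from 129S2 embryos. The labels give the strain of all samples as C57BL/6, which differs from these descriptions. Both ESC lines grew on gelatin in medium with serum and LIF, whereas EpiSCs grew on fibronectin, itself an integrin ligand, in N2B27 with Activin A and bFGF. Thus, cell state, substrate, and medium cannot be told apart in any comparison with EpiSCs. Each of the cell states is represented by a single line, so that line and state cannot be told apart either.

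RNA-seq was labelled for 3 samples of WT ESCs, 3 of Nanog-/- ESCs, and 4 of EpiSCs. The deposited table holds only the median RPKM of each group (reads per gene length and library size), so no level below has a replicate error, no difference was tested, and the depth of the libraries is unknown. EpiSC values were divided by 1.89, the median ratio of EpiSC to WT ESC RPKM over 9077 genes, and all EpiSC levels below are scaled in this way. Nanog-/- values were used as deposited, since their median ratio to WT ESCs was 1.05. A gene was called higher or lower when its log2(RPKM + 1) differed by at least 1, which is at least 2-fold, and its RPKM reached 1 in either group. Promoter Capture Hi-C (PCHi-C), in which ligated restriction fragments are enriched for those with a promoter, was labelled for 12 lanes, of which 5 are from each of the ESC lines and 2 from EpiSCs. Each cell type has 1 combined list of contacts. The labels could be checked by a few markers. Nanog RPKM was 417.7 in WT ESCs, 22.3 in Nanog-/- ESCs, and 191 in EpiSCs. All 6 naive markers in the table were lower in EpiSCs, and 2 of 7 primed markers, Fgf5 and T, were higher, with EpiSC levels of 116 and 236 RPKM against 4.74 and 3.37 in WT ESCs. The other 5 primed markers were under 2-fold, and of these Dnmt3b and Lef1 had log2 differences of -0.55 and -0.66. Of 4 general pluripotency markers, 3 were under 2-fold in EpiSCs and Sox2 was lower, at 72.6 RPKM against 397 in WT ESCs. In Nanog-/- ESCs, 2 of the 6 naive markers (Dppa3 and Klf4) and 4 of the 7 primed markers (Fgf5, Lef1, T, and Zic2) were lower. Because these are bulk samples, fewer cells of a type and less RNA per cell cannot be told apart.

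Of the 67 members, 20 were higher and 8 were lower in EpiSCs than in WT ESCs, which is 29.9% and 11.9% of them. Among all 10532 genes that reached 1 RPKM in either group, 15.5% were higher and 14.4% were lower, and over all genes of the table the shares were 10.4% and 9.66%. A total of 48 members reached 1 RPKM in this comparison. The median log2 difference over all members was 0.26, against 0.00 over all genes. With EpiSC values as deposited, 31 members were higher and 5 lower, so that 86.1% of the called members were higher in place of 71.4%. In Nanog-/- ESCs, 3 members were higher and 1 was lower, or 4.48% and 1.49% of all members, where the shares over all genes of the table were 1.69% and 1.35%. Of the 43 members that reached 1 RPKM in this comparison these are 6.98% and 2.33%, beside 2.59% and 2.08% of 10175 genes.

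Most fibrillar collagens were higher in EpiSCs than in WT ESCs. Of 8 members of this class, 5 were higher in EpiSCs and none was lower, with a median log2 difference of 2.43 over all 8 and of 2.65 over the 7 that reached 1 RPKM. The 5 are 71.4% of those 7, beside 15.5% of all genes at 1 RPKM. Type I collagen, the main fibril of bone, skin, and tendon, is built of the products of Col1a1 and Col1a2. Col1a1 had 15.0 RPKM in WT ESCs, 17.0 in Nanog-/- ESCs, and 72.6 in EpiSCs. Col1a2 had 5.73, 6.53, and 49.4 RPKM in the same order, an 8.62-fold higher level in EpiSCs than in WT ESCs. The ESC lines lay close together for both chains, and EpiSCs lay far above them. The ratio of Col1a1 to Col1a2, in which a scaling factor of the group medians cancels, was 2.61 in WT ESCs, 2.60 in Nanog-/- ESCs, and 1.47 in EpiSCs. Col3a1, the chain of type III collagen, which accompanies type I in soft tissues, had 2.66 RPKM in WT ESCs, 2.82 in Nanog-/- ESCs, and 54.1 in EpiSCs. This 20.3-fold higher level was the largest among the fibrillar chains.

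Col2a1 encodes the collagen of cartilage and notochord and had 4.93 RPKM in WT ESCs, 2.12 in Nanog-/- ESCs, and 52.2 in EpiSCs. It was the only fibrillar chain whose level in Nanog-/- ESCs was below that in WT ESCs, with a log2 difference of -0.93 that stays under 2-fold on this scale. Col5a1, a chain of the collagen that starts type I fibrils, had 8.43, 8.67, and 58.0 RPKM in WT ESCs, Nanog-/- ESCs, and EpiSCs. The remaining fibrillar members were low throughout. Col5a3 had 2.38, 2.74, and 2.06 RPKM, Col27a1 did not exceed 1.03 RPKM, and Col24a1 did not exceed 0.116 RPKM. In Nanog-/- ESCs no fibrillar collagen passed 2-fold, and the median log2 difference of the class was 0.10. Markers of fibroblasts and mesenchyme were also higher in EpiSCs in part. Of the 6 markers in the table, 3 were higher in EpiSCs (Fbn1, Postn, and Twist1) and none was lower, and their summed level was 29.8 RPKM in WT ESCs, 44.7 in Nanog-/- ESCs, and 62.5 in EpiSCs. In Nanog-/- ESCs, where no fibrillar collagen was called, 2 of these markers were higher, Fbn1 by 3.24-fold and Postn by 2.74-fold. None of the 6 markers was at 0 in any state, the lowest being Tbx18 at 0.0572, 0.439, and 0.501 RPKM. Their part in the result was not tested.

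**Figure D1:**
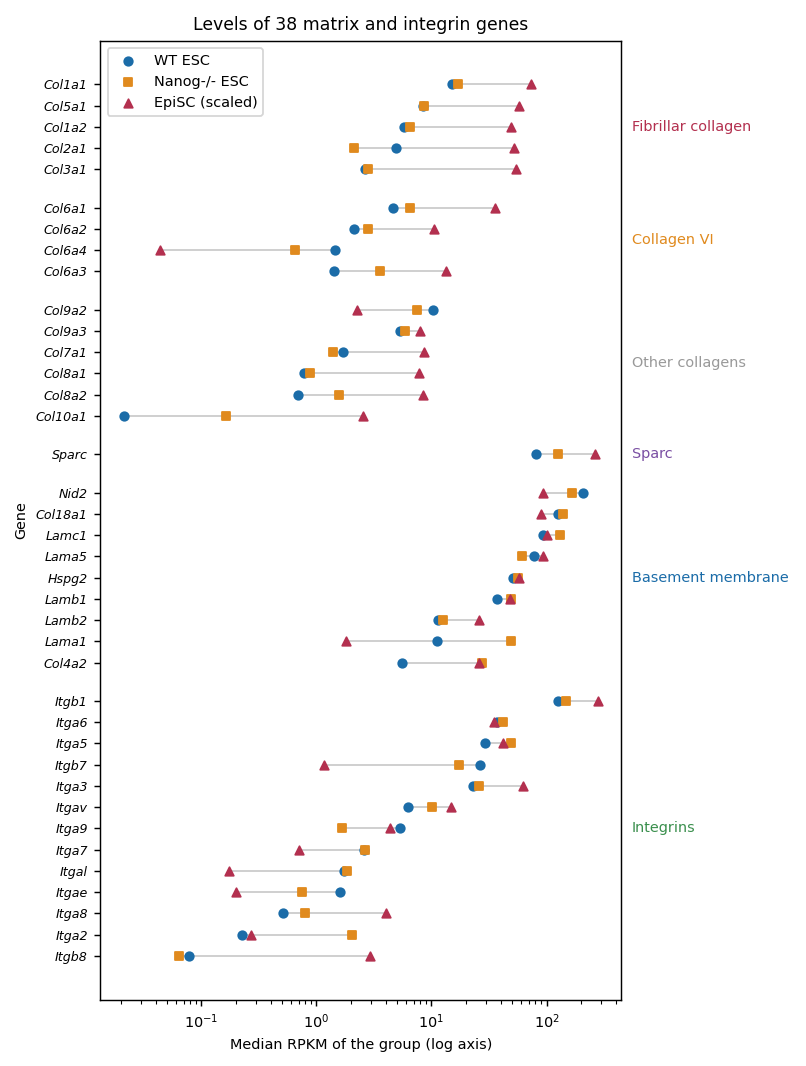
Median RPKM (x axis, log scale) of 38 members that reached 5 RPKM in any cell state or passed 2-fold in either comparison (y axis, genes by class). Circles are WT ESCs, squares Nanog-/- ESCs, and triangles EpiSCs after scaling, and a gray line joins the values of a gene. The EpiSC triangles of the 5 fibrillar collagens lie between 49.4 and 72.6 RPKM, to the right of both ESC symbols, whereas most basement membrane symbols lie close together.

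The promoters of the type I and type III chains are shown because these genes were 8.62-fold and 20.3-fold higher in EpiSCs. The sequences are from the RefSeq start sites in GRCm38.p6 and run from 250 bases before the start over 50 bases after it. Capitals mark matches, on either strand, to CCAAT, the GC box GGGCGG, the TATA box TATAAA, or the GATA motif AGATAA, and none of the matches shown overlaps another. The window of Col1a2 is chr6:4505368-4505667 on the plus strand, and that of Col3a1 is chr1:45311288-45311587 on the plus strand.

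Col1a2: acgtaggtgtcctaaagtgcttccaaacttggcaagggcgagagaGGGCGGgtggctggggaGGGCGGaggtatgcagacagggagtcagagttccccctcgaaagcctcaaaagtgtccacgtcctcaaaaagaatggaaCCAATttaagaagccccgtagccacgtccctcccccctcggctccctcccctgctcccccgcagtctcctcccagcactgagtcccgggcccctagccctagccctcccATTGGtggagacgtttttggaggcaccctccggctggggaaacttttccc

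Col3a1: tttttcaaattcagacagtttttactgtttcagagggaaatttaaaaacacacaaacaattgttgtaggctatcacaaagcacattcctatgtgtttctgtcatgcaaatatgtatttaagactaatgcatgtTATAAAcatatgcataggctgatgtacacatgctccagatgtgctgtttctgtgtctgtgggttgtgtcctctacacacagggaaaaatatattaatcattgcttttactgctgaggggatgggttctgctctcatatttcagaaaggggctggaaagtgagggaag

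The Col1a2 window holds 2 matches to CCAAT and 2 to GGGCGG. The Col3a1 window holds neither, and its 1 match is to TATAAA. Over all 32851 promoter windows of the same length, 37.4% hold CCAAT, 35.7% GGGCGG, 13.6% TATAAA, and 11.2% AGATAA. Among the 55 windows found for 49 of the members, 13 hold CCAAT, 25 hold GGGCGG, 4 hold TATAAA, and 2 hold AGATAA. A match is a string of letters and not a bound site. Of the members called in EpiSCs, Col1a1, Col2a1, Itga7, Itgae, Itgal, Lama1, and Nid2 had no window.

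Other collagens followed the fibrillar class in part. Collagen VI forms beaded microfilaments around cells from the products of Col6a1, Col6a2, and Col6a3, and all of these 3 chains were higher in EpiSCs. Col6a1 had 4.65 RPKM in WT ESCs, 6.48 in Nanog-/- ESCs, and 35.3 in EpiSCs. Col6a2 had 2.11, 2.82, and 10.6 RPKM, and Col6a3 had 1.43, 3.55, and 13.2 RPKM. For each of them the order was WT ESCs, then Nanog-/- ESCs, then EpiSCs, although the ESC levels differed by less than 2-fold on the log2(RPKM + 1) scale. Col6a4, a further chain of this type, went the other way, at 1.46, 0.650, and 0.0436 RPKM. Of the 5 other collagens, 4 were higher in EpiSCs. They include Col8a1 and Col8a2, which form the short-chain network collagen of endothelium and cornea. Col8a1 had 0.786, 0.881, and 7.78 RPKM and Col8a2 0.694, 1.57, and 8.44 RPKM in WT ESCs, Nanog-/- ESCs, and EpiSCs. Col7a1, which makes the anchoring fibrils under epithelia, had 1.72, 1.39, and 8.62 RPKM. Col10a1, known from hypertrophic cartilage, had 0.0213, 0.165, and 2.56 RPKM. Among the fibril-associated collagens, Col9a2 was 4.50-fold lower in EpiSCs, at 10.2, 7.46, and 2.27 RPKM. Its partner chain Col9a3 had 5.30, 5.93, and 8.0 RPKM and did not pass 2-fold. Of the 4 transmembrane collagens, none was called in either comparison, and none exceeded 1.5 RPKM in any state.

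Sparc encodes a secreted glycoprotein that binds collagens and collagen IV in particular. Its RPKM was 81.7 in WT ESCs, 126 in Nanog-/- ESCs, and 264 in EpiSCs, 3.23-fold higher in EpiSCs than in WT ESCs. The level in Nanog-/- ESCs was 1.54 times that in WT ESCs and thus under 2-fold. In EpiSCs, Sparc and Itgb1 were the members with the highest RPKM.

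The basement membrane class behaved differently. Of its 14 members, 2 were higher (Col4a2 and Lamb2) and 2 were lower (Lama1 and Nid2) in EpiSCs, and the median log2 difference was 0.01 over all 14 and 0.09 over the 12 that reached 1 RPKM. Either count is 16.7% of those 12. These shares lie near the 15.5% higher and 14.4% lower of all genes at 1 RPKM. The median of the fibrillar class exceeded that of the basement membrane class by 2.55 on the log2 scale among genes at 1 RPKM, and by 2.42 when no minimum was set. In Nanog-/- ESCs the corresponding difference was -0.03. The sum of RPKM over the 14 basement membrane genes was 15.8 times the sum over the 8 fibrillar collagens in WT ESCs and 17.2 times in Nanog-/- ESCs, but 1.87 times in EpiSCs. This ratio does not depend on the scaling. The sums cover 14 of the 22 basement membrane symbols and 8 of the 11 fibrillar symbols on the class lists, so they describe a part of each class. The sums themselves were 627 and 39.6 RPKM in WT ESCs, 699 and 40.5 in Nanog-/- ESCs, and 542 and 289 in EpiSCs.

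**Figure D2:**
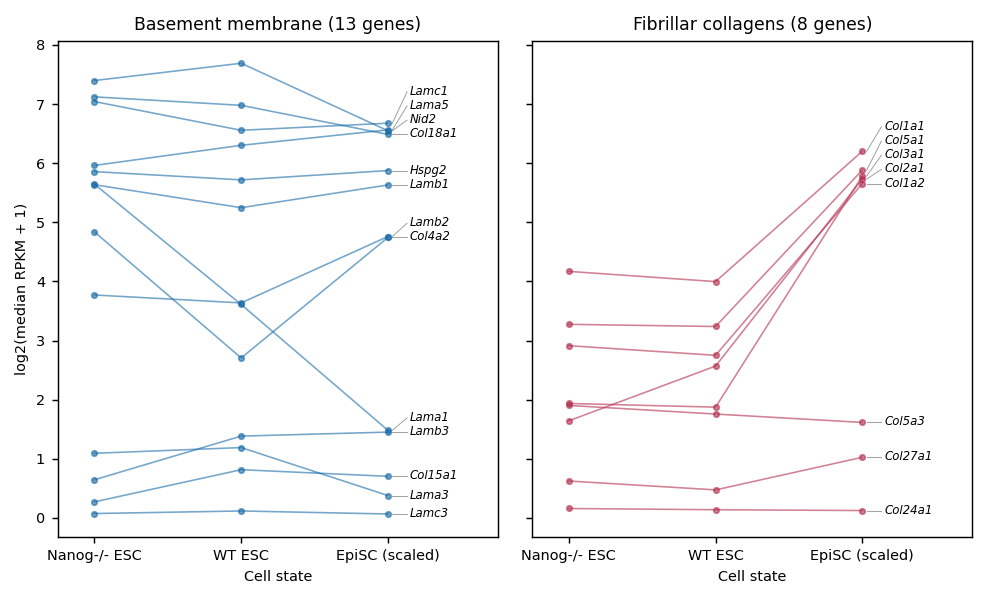
log2(median RPKM + 1) (y axis) of 13 basement membrane genes (left) and the 8 fibrillar collagens (right) in Nanog-/- ESCs, WT ESCs, and EpiSCs after scaling (x axis), with a line per gene. The 5 fibrillar lines that end at the top right start between 2.12 and 17.0 RPKM in Nanog-/- ESCs. Among basement membrane genes, the Col4a2 line has its lowest point at WT ESCs, and the Lama1 line falls from Nanog-/- ESCs through WT ESCs to EpiSCs.

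Laminins are trimers of an alpha, a beta, and a gamma chain. The chains Lama5, Lamb1, and Lamc1 were expressed at high levels in all 3 cell states. Lama5, the alpha chain of the laminin on which pluripotent cells are commonly grown, had 77.9 RPKM in WT ESCs, 61.3 in Nanog-/- ESCs, and 93.6 in EpiSCs. Lamb1 had 37.0, 48.7, and 48.6 RPKM, and Lamc1 had 93.1, 131, and 101 RPKM. None of these 3 chains differed 2-fold from WT ESCs. Lamb2, the beta chain known from neuromuscular junction and kidney, had 11.4, 12.6, and 26.1 RPKM and was 2.28-fold higher in EpiSCs. The ratio of Lamb1 to Lamb2 was 3.23 in WT ESCs, 3.85 in Nanog-/- ESCs, and 1.86 in EpiSCs. Lama3 and Lamb3 did not exceed 1.28 and 1.73 RPKM in any state.

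Lama1 stood apart from the other laminins. It encodes the alpha chain of the first laminin of the embryo, which is made in large amounts by parietal endoderm. Its RPKM was 11.2 in WT ESCs, 49.0 in Nanog-/- ESCs, and 1.79 in EpiSCs. The level was thus 4.38-fold higher in Nanog-/- ESCs and 6.26-fold lower in EpiSCs than in WT ESCs. Lama1 was the only member called in opposite directions in both comparisons. The ratio of Lama5 to Lama1 was 6.95 in WT ESCs, 1.25 in Nanog-/- ESCs, and 52.3 in EpiSCs.

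Col4a2 encodes a chain of collagen IV and was higher in both comparisons. Its RPKM was 5.52 in WT ESCs, 27.6 in Nanog-/- ESCs, and 25.8 in EpiSCs, so that the levels in Nanog-/- ESCs and EpiSCs were 5.00-fold and 4.67-fold higher. The comparisons share the WT ESC samples. Col18a1, the core protein from which endostatin is cleaved, had 125, 138, and 88.7 RPKM and was under 2-fold in both comparisons. Hspg2 had 51.6, 57.0, and 57.7 RPKM. Nid2, one of the nidogens, was the member with the highest RPKM in WT ESCs, at 205, and had 168 RPKM in Nanog-/- ESCs and 92.6 in EpiSCs. Its log2 difference in EpiSCs was -1.14, close to the threshold, and it was -0.23 with EpiSC values as deposited and -0.997 with a ratio taken over genes of at least 10 RPKM, under 2-fold in either case. The remaining basement membrane member, Col15a1, did not exceed 0.759 RPKM, and Lamc3 did not exceed 0.0843 RPKM.

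Markers of primitive and parietal endoderm moved with Lama1 and Col4a2 in Nanog-/- ESCs. Of the 12 markers in the table, 9 were higher in Nanog-/- ESCs and none was lower, and their summed level was 9.49 RPKM in WT ESCs, 102 in Nanog-/- ESCs, and 79.6 in EpiSCs. The GATA factors that specify primitive endoderm were among them. Gata4 had 1.29, 18.5, and 0.518 RPKM and Gata6 0.538, 16.5, and 4.33 RPKM in WT ESCs, Nanog-/- ESCs, and EpiSCs. In EpiSCs, where Col4a2 was higher and Lama1 lower, 6 of the 12 markers were higher (Foxa2, Sox17, Thbd, Gata6, Pdgfra, and Dab2) and 1 was lower (Amn). Of the EpiSC sum, 48.0 RPKM came from Foxa2, which is also expressed in the primitive streak and its derivatives. Of the other markers on this list, Afp and Ttr did not exceed 0.0649 RPKM in any state. Amn had 2.35, 11.7, and 0.415 RPKM and Cubn 0.392, 7.65, and 0.0743 RPKM in WT ESCs, Nanog-/- ESCs, and EpiSCs. Both were called higher in Nanog-/- ESCs. The part of endoderm-like cells in the levels of Lama1 and Col4a2 was not tested.

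Col4a2 and Col4a1 are shown next because the start sites of this pair fall on the same baited fragment (chr8:11312268-11313911), so that no contact of this fragment can be given to either gene alone. Both start sites are from RefSeq. They lie 21 bases apart on opposite strands in such a way that the 5′ ends overlap, and reads within these bases cannot be told apart without strand information. The Col4a2 window is chr8:11312555-11312854 on the plus strand, and the Col4a1 window is chr8:11312777-11313076 on the minus strand. Capitals mark the same motifs as above.

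Col4a2: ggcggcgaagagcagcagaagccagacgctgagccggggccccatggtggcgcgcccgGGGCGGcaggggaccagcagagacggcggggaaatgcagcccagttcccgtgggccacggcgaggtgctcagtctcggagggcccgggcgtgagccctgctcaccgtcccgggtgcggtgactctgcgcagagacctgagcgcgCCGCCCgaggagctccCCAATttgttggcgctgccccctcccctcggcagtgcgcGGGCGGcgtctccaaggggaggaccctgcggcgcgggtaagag

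Col4a1: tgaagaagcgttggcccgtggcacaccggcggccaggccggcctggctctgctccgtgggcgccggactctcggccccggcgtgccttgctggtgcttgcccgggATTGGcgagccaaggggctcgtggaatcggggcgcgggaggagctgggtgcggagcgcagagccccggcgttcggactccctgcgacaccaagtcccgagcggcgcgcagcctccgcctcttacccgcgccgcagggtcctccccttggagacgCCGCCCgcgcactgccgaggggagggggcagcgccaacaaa

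The Col4a2 window holds 3 matches to GGGCGG and 1 to CCAAT, and the Col4a1 window holds 1 of each. The windows overlap, and a match in the shared stretch can be listed in both. No TATAAA or AGATAA was found in them.

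Integrin subunits were split in both directions. Of 24 subunits in the table, 5 were higher and 4 were lower in EpiSCs, and 1 was higher and 1 lower in Nanog-/- ESCs. These are 20.8% and 16.7% in EpiSCs, beside 10.4% and 9.66% of all genes of the table, and 4.17% in either direction in Nanog-/- ESCs, beside 1.69% and 1.35%. Itgb1, the beta subunit shared by most matrix receptors, was the most abundant integrin in every state, at 125 RPKM in WT ESCs, 146 in Nanog-/- ESCs, and 279 in EpiSCs, 2.23-fold higher in EpiSCs. Of the laminin-binding alpha subunits, Itga6 had 36.8, 41.5, and 35.3 RPKM and was under 2-fold in both comparisons. Itga3 had 23.2, 25.8, and 62.2 RPKM and was 2.69-fold higher in EpiSCs. The ratio of Itga3 to Itga6 was 0.629 in WT ESCs, 0.623 in Nanog-/- ESCs, and 1.76 in EpiSCs, so that the order of these receptors for laminin was exchanged between ESCs and EpiSCs. Itga7, a laminin receptor of muscle, was lower in EpiSCs, at 2.61, 2.67, and 0.699 RPKM, with a log2 difference of -1.09 that was -0.64 with EpiSC values as deposited, under 2-fold.

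The alpha subunits that recognize the RGD sequence of fibronectin and vitronectin were higher in EpiSCs or under 2-fold. Itgav had 6.21 RPKM in WT ESCs, 10.1 in Nanog-/- ESCs, and 14.8 in EpiSCs, and Itga8 had 0.515, 0.795, and 4.05 RPKM. Itga5, which forms the main fibronectin receptor with Itgb1, had 29.1, 48.8, and 41.8 RPKM and passed 2-fold in neither comparison. Itgb8, a partner of Itgav in the activation of latent TGF-beta, had 0.0784, 0.0638, and 2.90 RPKM. Thus, Itgav and Itgb8 were both higher in EpiSCs. Vtn, which encodes the ligand vitronectin, had 0.0405, 0.0832, and 12.6 RPKM.

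Collagen-binding integrins were scarce in comparison with the collagens. Of the 4 alpha subunits of this class, none reached 2 RPKM in WT ESCs or EpiSCs. Itga2, a collagen receptor of epithelia and platelets, was higher in Nanog-/- ESCs, at 0.225, 2.05, and 0.268 RPKM in WT ESCs, Nanog-/- ESCs, and EpiSCs. Itga1 did not exceed 1.57 RPKM, Itga10 0.655 RPKM, and Itga11 0.367 RPKM. Itga9, which binds tenascin and osteopontin, was the member lower in Nanog-/- ESCs, at 5.28, 1.66, and 4.40 RPKM, 3.18-fold lower than in WT ESCs. Tnc, which encodes its ligand tenascin-C, was higher in Nanog-/- ESCs, at 12.8, 65.9, and 25.6 RPKM.

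Several integrins that are known from leukocytes were lower in EpiSCs. Itgb7 pairs with Itga4 or Itgae in lymphocyte homing. It had 26.2 RPKM in WT ESCs, 17.3 in Nanog-/- ESCs, and 1.17 in EpiSCs, 22.5-fold lower in EpiSCs than in WT ESCs. Its log2(RPKM + 1) difference of -3.65 was the lowest of all members on this scale, although the ratio of the low levels of Col6a4 is larger. Itgae had 1.59, 0.748, and 0.198 RPKM, and its log2 difference of -1.11 was -0.92 with EpiSC values as deposited, under 2-fold. Itga4 had its highest value in EpiSCs, at 0.389, 0.406, and 0.937 RPKM, and did not reach 1 RPKM. Itgal, a subunit of the leukocyte adhesion receptor LFA-1, had 1.74, 1.86, and 0.173 RPKM. Its beta partner Itgb2 had 0.530, 1.01, and 1.75 RPKM, highest in EpiSCs. The Itgb2 difference of 0.85 in EpiSCs was under 2-fold only on the log2(RPKM + 1) scale. The related Itgax and Itgad were at or under 0.166 RPKM in all states. Of the 6 markers of endothelium and blood in the table, the leukocyte marker Ptprc did not exceed 0.511 RPKM, and only Pecam1, which ESCs express, passed 1 RPKM, at 33.3, 26.2, and 0.230 RPKM.

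**Figure D3:**
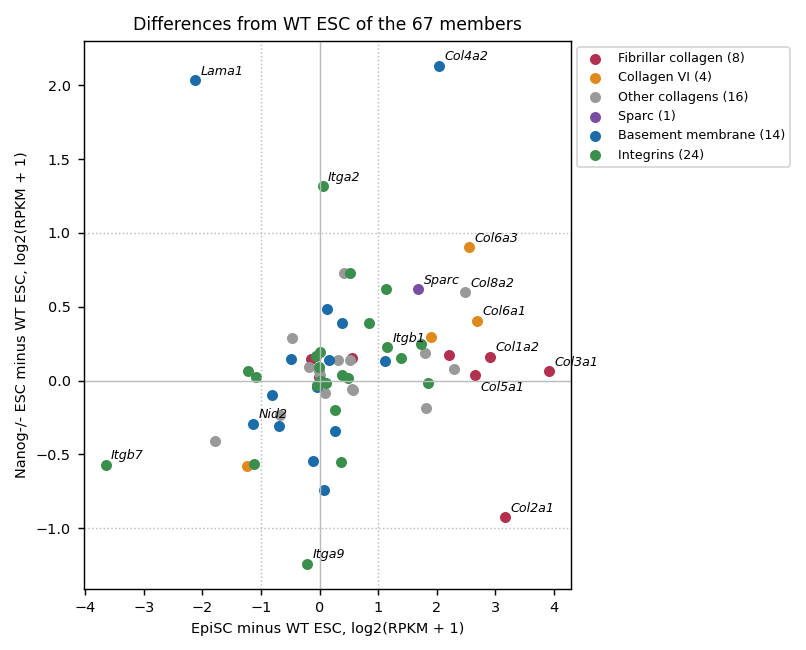
Difference from WT ESCs in log2(RPKM + 1) of each of the 67 members, EpiSCs on the x axis and Nanog-/- ESCs on the y axis, colored by class, with the number of genes of each class in the legend. Dotted lines mark a difference of 1 in either direction. Both axes share the WT ESC values, so a slope would not be evidence of a common effect. Col4a2 is at the top right, Lama1 at the top left, and Itgb7 at the far left.

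The 28 members that stayed under 5 RPKM in all states and under 2-fold in both comparisons had at most 3.32 RPKM, and 18 of the 67 members stayed under 1 RPKM in all 3 states. Genes that process, surround, or anchor the matrix were examined in lists of 54 symbols, of which 46 were in the table. In EpiSCs, 20 of them were higher and 3 were lower, and in Nanog-/- ESCs 5 were higher and 1 was lower. Of those at 1 RPKM, these are 43.5% and 6.52% in EpiSCs, beside 15.5% and 14.4% of all genes at 1 RPKM. The shares in Nanog-/- ESCs are 12.2% and 2.44%, beside 2.59% and 2.08%. Of 14 genes of collagen processing, 7 were higher in EpiSCs (50%) and none was lower. Serpinh1, the collagen chaperone of the endoplasmic reticulum, had 39.1 RPKM in WT ESCs, 69.4 in Nanog-/- ESCs, and 449 in EpiSCs. Lox, which cross-links collagen, had 5.07, 10.1, and 19.2 RPKM, and Bmp1, which removes the C-terminal propeptide of fibrillar collagens, had 5.05, 10.1, and 24.5 RPKM. The beta subunit of prolyl hydroxylase, P4hb, was under 2-fold at 327, 335, and 386 RPKM. Of 15 other matrix proteins and receptors, 8 were higher in EpiSCs (53.3%) and none was lower. Among them was Ddr1, a collagen receptor that is not an integrin, at 22.3, 20.2, and 66.7 RPKM. Of 17 integrin adaptors, 5 were higher and 3 were lower in EpiSCs, or 29.4% and 17.6%, the latter near the 14.4% of all genes. The higher adaptors included Zyx (zyxin), at 15.5, 33.5, and 99.6 RPKM, and Parva (alpha-parvin), at 1.95, 4.03, and 14.03 RPKM. Parvb (beta-parvin) was lower, at 41.3, 26.7, and 6.10 RPKM, so that Parvb exceeded Parva in both ESC lines and Parva exceeded Parvb in EpiSCs.

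PCHi-C contacts of the members' promoters were counted next, to ask whether the cell states that differ in matrix expression also differ in what these promoters touch. A contact is a pair of HindIII fragments, at least one of them baited, with a CHiCAGO score of at least 5, and the score weighs the reads that join the pair against the background at that distance. A fragment pair that is not listed had a lower score, and its reads are not known. The 3 lists hold 100492 pairs in the WT ESC list, 87369 in the EpiSC list, and 74931 in the Nanog-/- list, with 2177284, 1651286, and 1438555 reads. These sums cover the listed pairs and are not the depth of the libraries. Each list combines 2 biological replicates, so differences between lists were not tested, and intervals on reads (exact Poisson, 95%) and on shares (Wilson, 95%) cover counting error only. Coordinates are in GRCm38, in which all 729 fragments of these contacts end at HindIII sites.

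Of the 67 members, 65 had a baited promoter with a contact in at least 1 list. The exceptions were Itga6 and Itgb6. The members had 399 contacts in the WT ESC list, 329 in the EpiSC list, and 295 in the Nanog-/- list, which is 0.397%, 0.377%, and 0.394% of the lists. Their number thus followed the size of the lists. Of the 399 contacts in WT ESCs, 146 were also listed in EpiSCs, or 36.6% (32.0% to 41.4%), and 157 in Nanog-/- ESCs, or 39.3% (34.7% to 44.2%). Over all WT ESC pairs the shares were 39.6% and 41.8%, both within these intervals. A total of 89 contacts were in all 3 lists, 185 were in the WT ESC list alone, 151 in the EpiSC list alone, and 106 in the Nanog-/- list alone.

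A member was counted as having more contacts when its number plus 1 was at least 2-fold higher than in WT ESCs, and fewer when it was at least 2-fold lower. In EpiSCs, 15 of 65 members had more and 16 had fewer contacts, or 23.1% and 24.6%, where the background was 16.3% and 27.7% of 18833 genes. In Nanog-/- ESCs, 6 members had more and 21 had fewer, or 9.23% and 32.3%, where the background was 7.68% and 33.2%. These shares lie near the background, and the differences described below are those of single promoters. Contacts and RNA were then set side by side. Of the 20 members higher in EpiSCs, 7 had more contacts in EpiSCs than in WT ESCs, 5 had the same number, and 8 had fewer. Of all 1591 genes higher in EpiSCs with a contact in any list, 42.9% had more and 43.8% fewer. Of the 8 members lower in EpiSCs, 2 had more and 6 had fewer contacts, and of all 1486 genes lower in EpiSCs with a contact in any list, 32.0% had more and 51.5% fewer.

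**Figure D4:**
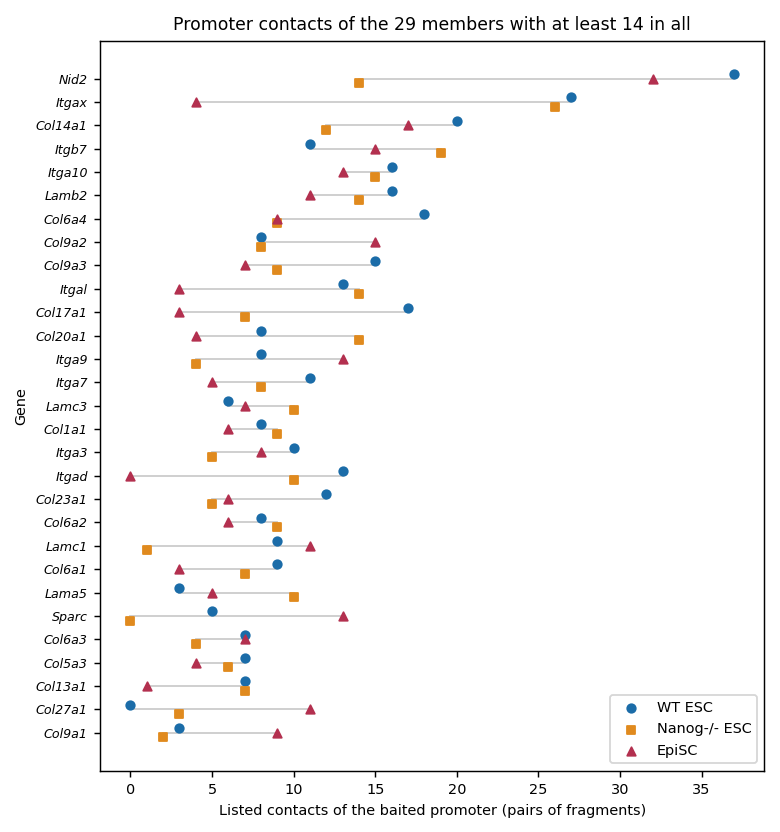
Number of listed PCHi-C contacts (x axis) of the 29 members with at least 14 contacts over the 3 lists (y axis), with circles for WT ESCs, squares for Nanog-/- ESCs, and triangles for EpiSCs, set slightly apart in height where they coincide. EpiSC triangles lie far to the left for Itgax, Itgal, Itgad, and Col17a1 and to the right for Sparc and Col27a1. The lists differ in size, so a number is to be read against 100492, 87369, and 74931 pairs.

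The 10 members with the most contacts were Nid2, Itgax, Col14a1, Itgb7, Itga10, Lamb2, Col6a4, Col9a3, Col9a2, and Itgal, with 83 contacts over the 3 lists for Nid2 and 30 for Itgal. Their RNA levels varied widely. Nid2, Itgb7, Lamb2, Col9a2, and Col9a3 exceeded 5 RPKM in at least 1 state, whereas Itgax, Col14a1, and Itga10 stayed under 1 RPKM in all. Col14a1, with 20, 17, and 12 contacts in WT ESCs, EpiSCs, and Nanog-/- ESCs, did not exceed 0.167 RPKM, and Itga10, with 16, 13, and 15, did not exceed 0.655 RPKM. Nid2 (bait chr14:19749330-19753901) had 37 contacts in the WT ESC list, 32 in the EpiSC list, and 14 in the Nanog-/- list, and 20 of the 37 were also listed in EpiSCs. Its contacts within the Nid2 gene were 13, 12, and 8 in the same order. The median distance of its contacts was 88.0 kb in WT ESCs, 43.7 kb in EpiSCs, and 36.2 kb in Nanog-/- ESCs. Shorter distances in Nanog-/- ESCs were seen for the whole list too, with medians over contacts within chromosomes of 139 kb in WT ESCs, 141 kb in EpiSCs, and 74.1 kb in Nanog-/- ESCs. The members as a whole had medians of 141 kb, 117 kb, and 59.3 kb. Itgb7 (bait chr15:102223512-102236430) had 11, 15, and 19 contacts in WT ESCs, EpiSCs, and Nanog-/- ESCs, so its number was not lower in EpiSCs, where its RNA was 22.5-fold lower.

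The basement membrane members had 80, 85, and 56 contacts and the fibrillar members 25, 37, and 21 in WT ESCs, EpiSCs, and Nanog-/- ESCs. Of the fibrillar contacts in EpiSCs, 11 belonged to Col27a1 (bait chr4:63210516-63219007), which had none in the WT ESC list and 3 in the Nanog-/- list. All 11 of these fragments lie in Col27a1 itself, between 5.71 and 98.7 kb from the bait. The contact with the highest score, 13.0, had 149 reads in EpiSCs (126 to 175) and 70 in Nanog-/- ESCs (54.6 to 88.4), at a distance of 6.43 kb. Col27a1 RNA was low, with 0.388 RPKM in WT ESCs, 0.541 in Nanog-/- ESCs, and 1.03 in EpiSCs. Col3a1 (bait chr1:45308632-45314866) had 1 contact in the WT ESC list, 6 in the EpiSC list, and none in the Nanog-/- list, all of them at least 389 kb from the bait. The WT ESC contact joins the promoter to an exon of Gulp1, 567 kb away, and was listed in EpiSCs too. It had 6 reads in WT ESCs (2.20 to 13.1) and 7 in EpiSCs (2.81 to 14.4). The reads of this pair in Nanog-/- ESCs, where it was not listed, are not known. Col1a2 had 1 contact in EpiSCs and none in ESCs. Col1a1 (bait chr11:94933954-94944228) had 8, 6, and 9 contacts, and its 3 strongest in WT ESCs were in all lists. The one with the highest score there, 18.6, joins it to an intergenic fragment 70.0 kb away and had 39 reads in the WT ESC list, 25 in the EpiSC list, and 32 in the Nanog-/- list.

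Sparc (bait chr11:55419749-55421396) had 5 contacts in the WT ESC list, 13 in the EpiSC list, and none in the Nanog-/- list. In EpiSCs the contact with the highest score, 10.9, lies 25.2 kb away at an exon of the neighboring gene Atox1 and had 40 reads (28.6 to 54.5). Several EpiSC contacts lie around the promoter of Slc36a1, 215 kb from the bait, which was also contacted in WT ESCs, by 13 reads (6.92 to 22.2) in WT ESCs and 12 (6.2 to 21.0) in EpiSCs. Sparc RNA was 1.54 times as high in Nanog-/- ESCs as in WT ESCs although its promoter had no listed contact there. Lamb1 (bait chr12:31261378-31270022) had 2 contacts in the WT ESC list, 7 in the EpiSC list, and 2 in the Nanog-/- list. Those of EpiSCs lie between 69.0 and 143 kb on one side of the bait, in intergenic sequence for the 3 with the highest scores, and the Lamb1 RNA was under 2-fold in both comparisons. Lamc1 (bait chr1:153328493-153334147) had 9, 11, and 1 contacts, and 2 of the 9 were listed in EpiSCs. Col4a2 had 2 contacts in the WT ESC list, 2 in the EpiSC list, and none in the Nanog-/- list, and Lama1 (bait chr17:67696225-67698617) had 1, none, and none. Col4a2, Lama1, and Itga2, the members called higher in Nanog-/- ESCs, had no listed promoter contact in those cells. They had few in the WT ESC list too, with 2, 1, and 1. Itga9, the member called lower, had 8 contacts in the WT ESC list and 4 in the Nanog-/- list. Of the 65 members with a contact in any list, 47 had one in the Nanog-/- list, and 14120 of all 18833 such genes did. A link between these RNA differences and the contacts was not tested. Itga4, silent or nearly so in ESCs, had 1 contact in the WT ESC list, 7 in the EpiSC list, and 1 in the Nanog-/- list, between 289 and 328 kb from its bait (chr2:79250446-79256411) in EpiSCs.

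**Figure D5:**
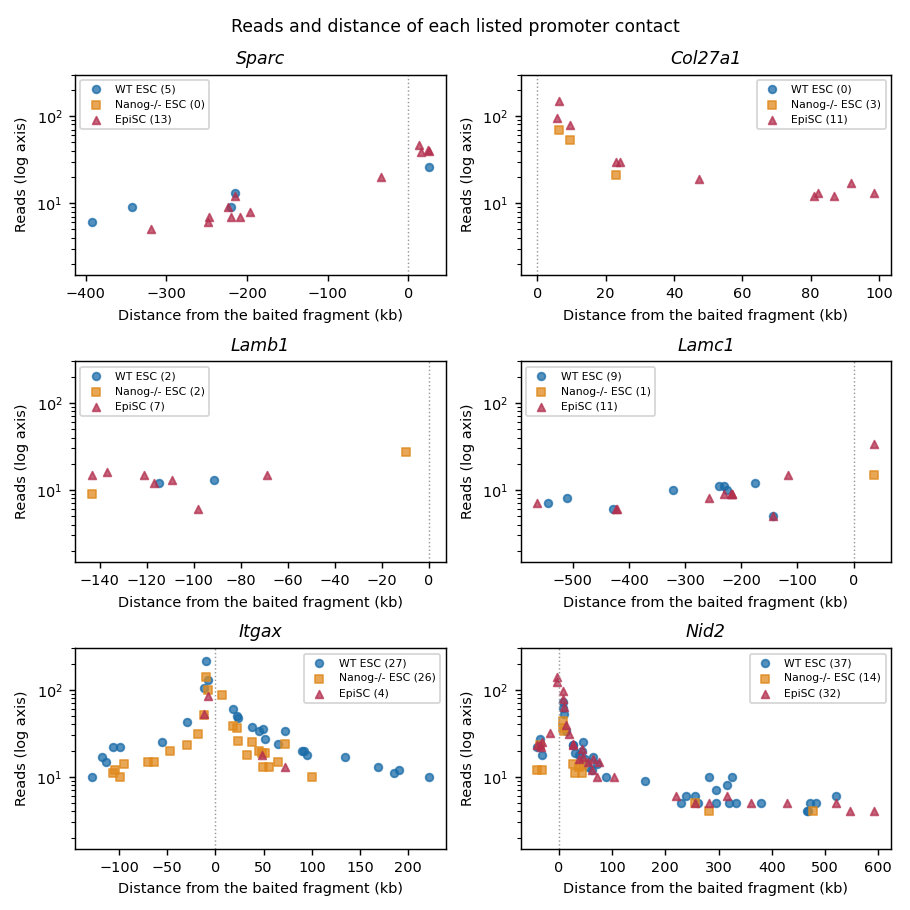
Reads (y axis, log scale) against the distance from the middle of the baited fragment in kb (x axis, negative toward lower coordinates) of each listed contact within the chromosome, for 6 promoters. Circles are WT ESCs, squares Nanog-/- ESCs, and triangles EpiSCs, with the number of contacts in parentheses. All Col27a1 points lie on one side within 98.7 kb, Itgax has 4 EpiSC points against 27 and 26 in the ESC lists, and the distal Nid2 points are mostly from WT ESCs and EpiSCs.

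The short HindIII fragments that the promoters of Col3a1, Lamb1, and Itga4 contacted in EpiSCs alone are shown because these contacts narrow the partner down to at most 163 bases. The sequences are from GRCm38 on the plus strand, and capitals mark the HindIII cut at both ends. The Col3a1 fragments are chr1:44786672-44786822, in an intron of Gulp1 (7 reads, score 7.92, 525 kb), and chr1:44922012-44922167, which is intergenic (7 reads, score 6.72, 390 kb). The Lamb1 fragment is chr12:31144349-31144511, intergenic (15 reads, score 8.68, 121 kb), and that of Itga4 is chr2:78925249-78925405, intergenic (10 reads, score 7.11, 328 kb).

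Col3a1, Gulp1 intron: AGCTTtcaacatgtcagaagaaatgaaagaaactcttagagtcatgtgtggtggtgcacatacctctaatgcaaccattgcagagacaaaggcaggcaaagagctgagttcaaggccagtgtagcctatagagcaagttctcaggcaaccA

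Col3a1, intergenic: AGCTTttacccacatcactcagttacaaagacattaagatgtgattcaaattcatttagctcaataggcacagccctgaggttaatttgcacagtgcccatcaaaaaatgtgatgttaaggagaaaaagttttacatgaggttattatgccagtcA

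Lamb1: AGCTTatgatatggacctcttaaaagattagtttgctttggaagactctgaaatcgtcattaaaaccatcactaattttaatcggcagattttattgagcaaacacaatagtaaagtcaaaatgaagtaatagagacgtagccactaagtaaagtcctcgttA

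Itga4: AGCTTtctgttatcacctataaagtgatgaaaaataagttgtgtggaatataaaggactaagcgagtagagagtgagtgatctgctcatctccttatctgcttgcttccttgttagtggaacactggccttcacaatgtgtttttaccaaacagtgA

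Their GC content ranges from 33.1% for Lamb1 to 45.0% for the Gulp1 intron. A neighboring fragment of the Gulp1 intron had the same number of reads in EpiSCs, so the contact may not be confined to the sequence printed.

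Promoters of leukocyte alpha subunits had far fewer contacts in the EpiSC list than in either ESC list. The 4 members of this class, Itgad, Itgae, Itgal, and Itgax, together had 56 contacts in the WT ESC list, 8 in the EpiSC list, and 52 in the Nanog-/- list. Of the 56, 7 were listed in EpiSCs, or 12.5% (6.19% to 23.6%), and 30 in Nanog-/- ESCs, or 53.6% (40.7% to 66.0%). The first of these intervals lies below the 39.6% of all WT ESC pairs, although contacts of one promoter with neighboring fragments are not independent. Most of the contacts belong to 3 promoters on chromosome 7. Itgax (bait chr7:128127587-128135527) had 27 contacts in the WT ESC list, 4 in the EpiSC list, and 26 in the Nanog-/- list. Its contact with the most reads, 10.2 kb away, had 214 reads in WT ESCs (186 to 245) and 140 in Nanog-/- ESCs (118 to 165) and was not listed in EpiSCs. Itgad (bait chr7:128152267-128154708) had 13, none, and 10 contacts, and Itgal (bait chr7:127294697-127298472) had 13, 3, and 14. Itgax and Itgad were at or under 0.166 RPKM in all 3 states, levels at which a difference in RNA cannot be seen. The leukocyte class was picked out after its values were seen, and fewer contacts in EpiSCs were not particular to it. The 4 transmembrane collagens had 43, 15, and 20 contacts in the same order. Of these 43, 23.3% (13.2% to 37.7%) were listed in EpiSCs and 20.9% (11.4% to 35.2%) in Nanog-/- ESCs. All WT ESC pairs gave 39.6% and 41.8%. Among these collagens, Col17a1 of the hemidesmosome had 17, 3, and 7 contacts and no more than 0.870 RPKM.

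Members that lie near each other were also examined for contacts between them. No baited fragment of a member carried the name of another gene. Col6a1 and Col6a2 contacted each other in all 3 lists over 101 kb, with 31 reads in WT ESCs (21.1 to 44.0), 22 in EpiSCs (13.8 to 33.3), and 19 in Nanog-/- ESCs (11.4 to 29.7). The Itgad and Itgax promoters contacted each other over 21.9 kb with 50 reads in WT ESCs (37.1 to 65.9) and 36 in Nanog-/- ESCs (25.2 to 49.8), and this pair was not listed in EpiSCs. They shared 5 partner fragments in WT ESCs and 8 in Nanog-/- ESCs. Col1a1 and Itga3, whose baits lie 137 kb apart, did not contact each other, and shared 1 partner fragment in WT ESCs and none in the other lists.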

How the data were processed

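RNA-seq was labelled for 10 samples and PCHi-C for 12 lanes. The submitters' processing notes name Trim Galore, TopHat, and DESeq2 for RNA-seq and Bowtie 1.1.0 for PCHi-C, and the build is GRCm38. The authors normalized expression to RPKM and deposited the median of each group, without the samples behind it. The column headed BT12 was taken as the Nanog-/- ESCs, because the design text sets it against ESCs. The same table holds the authors' fold changes and p-values, which were not used. For PCHi-C, the authors deposited for each pair of HindIII fragments the count of read pairs and a CHiCAGO score, after mapping with HiCUP and combining the 2 replicates. How reads were assigned to genes, and whether strand was used, is not given in the sources used here.

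Fragment pairs listed from both ends were counted once. Baits were assigned by the gene names of the lists, partner fragments by GENCODE M21, and promoters by RefSeq. Members were named with values where they reached 5 RPKM in any group or passed 2-fold, and contacts were named for the 10 members with most of them, for members that contact each other, and for others chosen after their values were seen. The values of 1 member are not reported here, although it stays in the counts. The members and lists were chosen with earlier results of these data known. The calculation of ratios and calls was tested on simulated data. Alternatives were other pseudocounts, minima, scalings, and thresholds. ChIP-seq samples were not used here. Python 3.11.15 was used with numpy 2.4.6, pandas 2.3.3, scipy 1.17.1, and matplotlib 3.10.9.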

Additional observations from a re-analysis of the deposited data

How the results depend on the processing

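No paired analysis was possible because the RNA values are group medians and each contact list combines its replicates, and for the same reason no replicate could be left out. The 32 member differences called in EpiSCs or Nanog-/- ESCs kept their direction under every scaling and pseudocount, which could not have come out otherwise. A pseudocount cannot change a sign, and the scalings moved values by less than the 2-fold of a call. With EpiSC RPKM as deposited, 31 members were higher and 5 lower (integrins 8 and 2), the calls of Nid2, Itga7, and Itgae being lost, and the class medians in EpiSCs were 0.71 for basement membrane and 3.55 for fibrillar genes, 2.84 apart. The median of all genes moved by 0.46 with that scaling. A ratio over genes at 10 RPKM gave medians of 0.21 and 2.79. A pseudocount of 0.1 gave a fibrillar median in EpiSCs of 2.77 and a difference between the classes of 2.66, and 5 higher and 4 lower members in Nanog-/- ESCs. Without a minimum RPKM the fibrillar median in EpiSCs was 2.43 and the difference 2.42, and with a minimum of 5 RPKM they were 2.91 and 2.77. With that minimum, 4 members were lower in EpiSCs, integrins were 3 higher and 1 lower in EpiSCs, and 0 integrins were higher in Nanog-/- ESCs. At 1.5-fold, 9 members were higher and 3 lower in Nanog-/- ESCs, among them 3 higher integrins. The core basement membrane list and the scaling of Nanog-/- values moved no count by over 1.5 times and no median by over 0.1.

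Contacts at a score of at least 7 numbered 159 in the WT ESC list, 120 in the EpiSC list, and 129 in the Nanog-/- list, and those with at least 10 read pairs 264 in WT ESCs and 200 in EpiSCs. Of the WT ESC contacts, 48.4% of those at a score of 7 were also listed in EpiSCs and 55.3% in Nanog-/- ESCs, where all pairs gave 57.8% and 60.4%. The members thus lay farther below all pairs than at a score of 5, above all in EpiSCs. How near their share is to that of all pairs depends on the threshold. At 10 read pairs the shares were 43.6% and 50.4%, where all pairs gave 47.9% and 54.8%, and 1 contact between members was then left in EpiSCs. Taking contacts within 1 Mb changed none of these results by over 1.5 times. Taking baits that name only members could change nothing, since no bait of a member names another gene. Pairs below a score of 5 are not listed, so that a contact missing from a list may have been just under it.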
